A study of Mus musculus with 6 samples.

Results

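The MEF2 transcription factors and the class IIa histone deacetylases that bind them were examined in newborn mouse heart ventricle with and without Med12. The set was chosen by gene symbol: the MEF2 genes Mef2a, Mef2b, Mef2c and Mef2d, and the deacetylase genes Hdac4, Hdac5, Hdac7 and Hdac9. These are 8 of the 24062 gene symbols in the count table, and 7 of the 8 had enough counts to be among the 13629 genes tested. Total RNA came from both ventricles of male C57/Bl6N mice on postnatal day 1 (P1). The 3 control libraries came from mice labelled CreNEG, and the 3 Med12cKO libraries from mice labelled CrePOS with a cardiac-specific Med12 knockout. The Cre driver, the deleted exons and whether the controls carried a floxed Med12 allele are not given in the sources used here. Cre was present only in the Med12cKO group, so Cre and the loss of Med12 cannot be told apart. Nothing in the labels ties a library to 1 animal, and each p-value therefore reflects only how far these libraries spread.

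MEF2 proteins are MADS-box transcription factors that bind an A/T-rich DNA element in the control regions of many cardiac and skeletal muscle genes, and Mef2c is needed to build the embryonic heart. Class IIa deacetylases have little deacetylase activity of their own. They bind MEF2 in the nucleus and hold its targets silent together with corepressors such as the Ncor1 and Hdac3 complex. Calcium- and stress-activated kinases phosphorylate them, 14-3-3 proteins then bind, and the deacetylases leave the nucleus. This control acts on proteins and their location, which transcript counts do not measure. Med12 is a subunit of the kinase module of Mediator, the complex that joins transcription factors to RNA polymerase II.

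MEF2 genes are known to be targets of MEF2 proteins themselves, so the start sites of the 8 genes were searched for the MEF2 consensus, a 10-base element that is its own reverse complement, so that 1 search covered both strands. RefSeq windows on GRCm38.p6 that ran from 250 bases before to 50 bases after each annotated start were found for all 8 genes, in 14 windows. The consensus occurred in 2 of the 14 windows, against 1047 of all 32851 windows (3.19%). They belonged to Mef2a and Hdac5. The sequences are printed 5′ to 3′ on the gene's strand with the element in capitals.
Mef2a, chr7:67372851-67372920, minus strand: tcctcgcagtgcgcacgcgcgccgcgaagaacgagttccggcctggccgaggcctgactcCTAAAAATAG
Hdac5, chr11:102230173-102230252, minus strand: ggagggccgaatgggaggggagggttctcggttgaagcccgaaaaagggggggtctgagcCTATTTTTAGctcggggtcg
The element spans bases −2 to 8 around the Mef2a start and bases −20 to −11 before the Hdac5 start. A match describes the letters only and is not a measured binding site.

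The targeted gene was lower in every library labelled Med12cKO. Med12 measured 103, 176 and 113 CPM (reads scaled to library size with TMM factors) in control replicates 1, 2 and 3, and 61.6, 85.0 and 41.3 CPM in Med12cKO replicates 1, 2 and 3. The groups did not overlap, and the Med12cKO mean was 47.9% of the control mean. The log2 fold change was −1.06 (SE 0.30), with an adjusted p of 0.765 in edgeR's quasi-likelihood test and 0.0246 in DESeq2. In whole ventricle, fewer cells of a type and less RNA per cell cannot be told apart. Across all genes, edgeR called 3 of 13629 (0.022%), limma-voom 3 (0.022%) and DESeq2 65 of 12795 (0.508%).

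Depth ran from 8453346 to 10911698 counts per library, and several libraries stood apart. The 7 cardiomyocyte markers summed to 30903 to 38528 CPM in control and 22680 to 28763 CPM in Med12cKO, so heart muscle was present in every library. The groups did not overlap in this sum, but singly they overlapped for Tnnt2, Tnni3, Actn2, Myh6 and Ttn. This list does not separate ventricle from atrium. The 8 atrial markers summed to 3780 to 5055 CPM in control and 3552 to 5131 CPM in Med12cKO. Singly, the groups overlapped for Nppa, Myl4, Sln, Nr2f2 and Bmp10. The rest of this list was lower in Med12cKO without overlap, which the sum does not show. Fibroblast markers summed to 8607 to 9863 CPM and 7351 to 11357 CPM, and endothelial markers to 1922 to 2085 CPM and 1775 to 2009 CPM. The 10 thymocyte and T cell markers averaged 73.5 CPM in control replicate 3 and 73.6 CPM in Med12cKO replicate 1, against at most 0.44 CPM in the other 4 libraries. The 5 lung markers summed to 55.5 CPM in control replicate 1 and 78.5 CPM in Med12cKO replicate 2, the libraries whose descriptions open with the letter J, and to under 0.80 CPM in the 4 that open with I. Smooth muscle and pericyte markers summed to 1816 to 2445 CPM in control and 2509 to 3264 CPM in Med12cKO, without overlap. Singly, the groups overlapped for Acta2, Tagln, Myh11, Pdgfrb, Cspg4, Rgs5 and Des, so the gap describes the sum. The 14 skeletal muscle markers summed to 107 to 149 CPM in control and 307 to 437 CPM in Med12cKO. Without Casq1, a calsequestrin gene singled out after its values were seen, the sums were 74.6 to 84.4 CPM in control and 244, 84.5 and 76.8 CPM in Med12cKO replicates 1, 2 and 3. Of the erythroid markers, Hba-a1 and Hbb-bt were listed at 0 in all libraries. Their part in the results below was not tested except where a fit without the named libraries is given.

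No difference between Med12cKO and control ventricle passed the test for any of the 7 genes tested. All had an adjusted p of 1.00 in edgeR, and DESeq2 and limma-voom called none. The number at an unadjusted p under 0.05 was 0 of 7 in each tool, against 3.78% of all genes in edgeR, 3.54% in DESeq2 and 3.73% in limma-voom. The groups overlapped for all 8 genes, while for 8.23% of all genes tested they did not. Transcripts of Mef2a, Mef2d, Hdac5 and Hdac7 were abundant in both groups, Mef2c and Hdac9 were intermediate, and Hdac4 and Mef2b were near the bottom of the range.

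**Figure D1:**
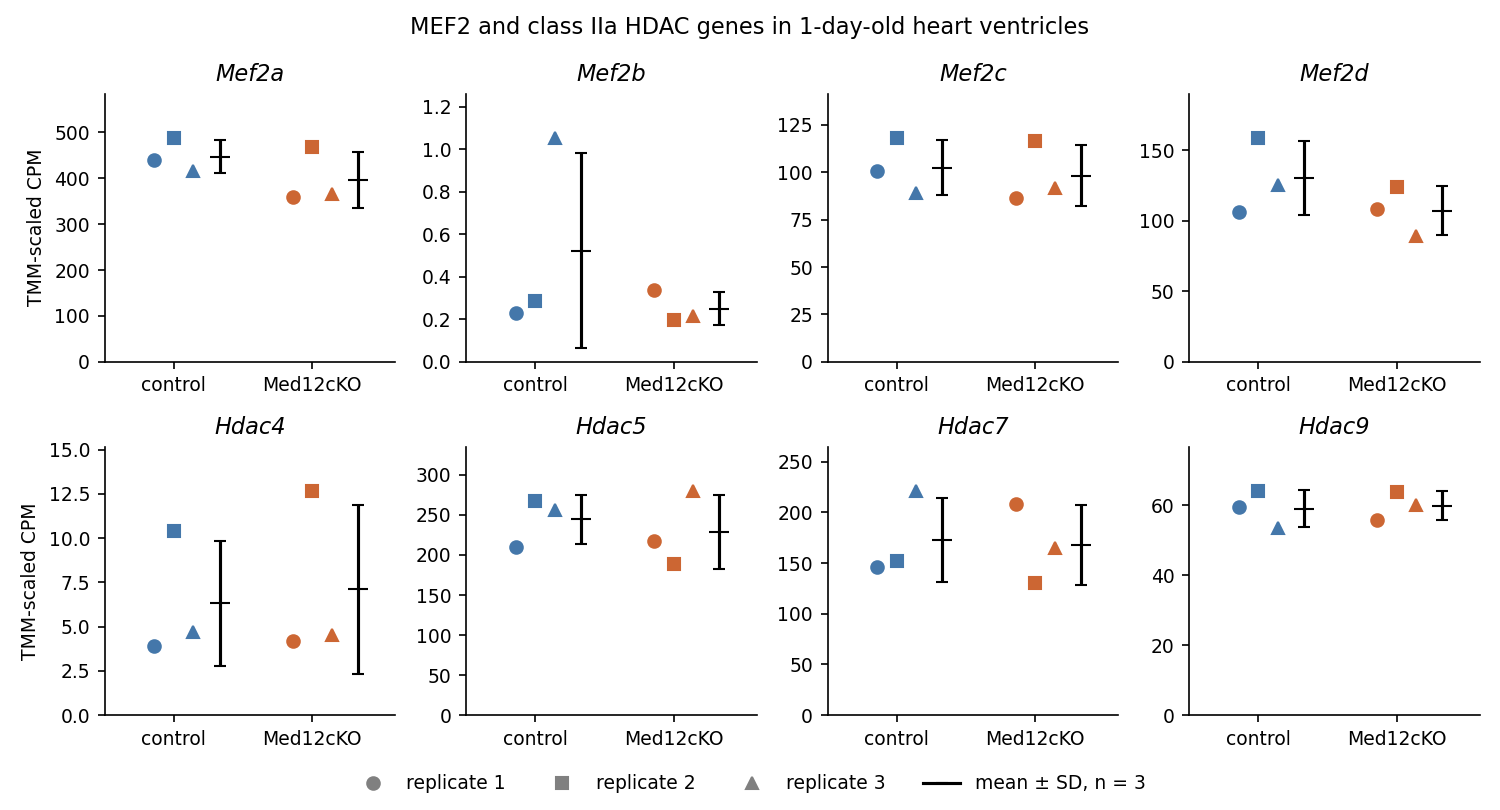
TMM-scaled CPM of the 8 genes in each library, 1 panel per gene with its own axis. Blue and orange symbols are the 3 control and 3 Med12cKO libraries, shaped by replicate number, and black marks are the mean ± SD; in every panel the points of the groups overlap, with Hdac4 highest in replicate 2 of each group.

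Mef2a, the factor linked in knockout mice to the postnatal heart, was the most abundant of the 4 MEF2 transcripts. Its gene (chromosome 7, 67231163 to 67372858, minus strand, GRCm38) gave 440, 487 and 415 CPM in control replicates 1, 2 and 3 and 359, 467 and 364 CPM in the corresponding Med12cKO libraries. Med12cKO replicates 1 and 3 lay below all controls, while replicate 2 lay above 2 of the 3. The means were 447 ± 36.6 CPM and 397 ± 61.0 CPM (SD, n = 3 each), a log2 fold change of −0.17 with a 95% interval of −0.50 to 0.15 (edgeR adjusted p = 1.00).

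Mef2d, the widely expressed member linked to the response of the adult heart to stress, had the lowest p of the 7 tested. Its gene (chromosome 3, 88142372 to 88172086, plus strand) gave 107, 159 and 125 CPM in control and 108, 124 and 89.4 CPM in Med12cKO. Control replicate 2 was the highest library, Med12cKO replicate 3 the lowest, and the other 4 were interleaved. The log2 fold change was −0.28 (95% interval −0.67 to 0.11; edgeR unadjusted p = 0.14, adjusted p = 1.00), and 14.6% of all genes tested had a larger one in either direction. It was −0.11 without control replicate 2 and −0.51 among the 4 letter I libraries. Of its exon bases, 8.87% are shared with an antisense gene model, and the use of strand in counting is not given in the sources used here.

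Mef2c, the early cardiac member, had group means of 102 ± 14.5 CPM and 98.1 ± 16.1 CPM (SD, n = 3 each). Its gene (chromosome 13, 83504034 to 83667080, plus strand) gave 100.5, 118 and 88.9 CPM in control and 86.4, 116 and 91.6 CPM in Med12cKO. Replicate 2 was the highest library in both groups, and the remaining 4 lay together. The log2 fold change was −0.06 (95% interval −0.41 to 0.28).

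Mef2b, the member best known from lymphocytes, was barely detected. Its gene (chromosome 8, 70139711 to 70167488, plus strand) gave 2, 3 and 11 counts in control and 3, 2 and 2 counts in Med12cKO. It was left out of the test by the filter on low counts. A total of 3 counts, the limit that a count of 0 allows for counting error, corresponds to 0.286 to 0.345 CPM here. Only control replicate 3, at 1.05 CPM, lay above that limit, and it is 1 of the 2 libraries with T cell markers. The other, Med12cKO replicate 1, had 3 counts, at the limit. The source of these reads was not tested. No fold change is given for Mef2b, and a difference between the groups was not detectable at this depth.

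Hdac5, a deacetylase whose loss in mice sensitises the heart to hypertrophy, had the highest mean of the class IIa transcripts. Its gene (chromosome 11, 102194432 to 102230166, minus strand) gave 209.6, 267 and 256 CPM in control and 217, 189 and 279 CPM in Med12cKO. Both the lowest and the highest library belonged to Med12cKO. The log2 fold change was −0.10 (95% interval −0.47 to 0.28).

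Hdac9, which is known to share a role in limiting cardiac growth with Hdac5, had the narrowest spread. Its gene (chromosome 12, 34047580 to 34917095, minus strand) gave 59.6, 63.9 and 53.6 CPM in control and 55.7, 63.8 and 60.05 CPM in Med12cKO. Its highest library was 1.19 times its lowest, and the log2 fold change was 0.02 (95% interval −0.25 to 0.29). Hdac9 also gives rise to a short form that lacks the deacetylase domain, and 1 count per gene does not separate the forms.

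Hdac7, the class IIa member with a known role in endothelial cells and in thymocytes, gave 146.5, 152 and 221 CPM in control and 208, 130 and 165 CPM in Med12cKO (chromosome 15, 97792664 to 97844502, minus strand). Control replicate 3 and Med12cKO replicate 1 were highest. The log2 fold change was −0.05 (95% interval −0.53 to 0.43).

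Hdac4, known as a target of calcium/calmodulin-dependent kinase II in cardiomyocytes, was the scarcest class IIa transcript. Its gene (chromosome 1, 91928779 to 92195699, minus strand) gave 3.91, 10.4 and 4.69 CPM in control and 4.17, 12.6 and 4.52 CPM in Med12cKO, from 34 to 128 counts. Replicate 2 of each group was highest. The log2 fold change was 0.17, with a 95% interval of −1.09 to 1.43. A lincRNA model on the opposite strand covers 22.4% of its exon bases. How many of its reads fall there was not measured.

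**Figure D2:**
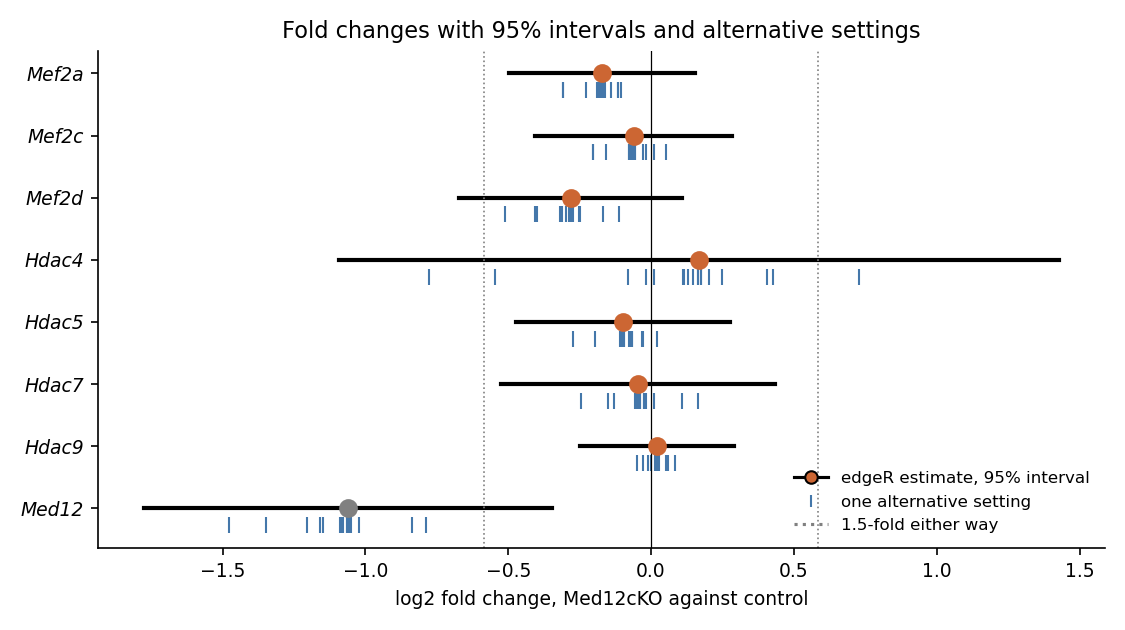
Log2 fold change, Med12cKO against control, of the 7 tested genes (orange) and Med12 (grey), with 95% intervals from the edgeR fit across all genes, blue ticks for the 18 alternatives and dotted lines at 1.5-fold either way. The intervals of all 7 genes include 0; that of Hdac4, −1.09 to 1.43, is the widest and that of Hdac9, −0.25 to 0.29, the narrowest.

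How large a difference these libraries leave possible varied by gene. For Mef2a, Mef2c, Hdac5, Hdac7 and Hdac9, 5 of the 7 tested, the 95% interval lay within 1.5-fold in either direction. For Mef2d it reached down to 0.628-fold, and for Hdac4 it ran from 0.469-fold to 2.69-fold. The log2 fold changes of all 3 tested MEF2 genes and of 2 of the 4 deacetylases were negative, which is a description of signs, since none passed the test and 47.8% of all genes tested were negative. The MEF2 genes and the deacetylases were not tested against each other.

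Levels were compared between genes only per length, as TMM-scaled CPM per kilobase of merged exons, with means and SDs over all 6 libraries. Mef2a stood at 28.7 ± 3.59, Hdac5 at 26.9 ± 4.12, Hdac7 at 25.2 ± 5.35 and Mef2d at 19.8 ± 3.94 CPM per kilobase. Neighbours among these 4 overlapped between libraries and did not differ beyond their spread. Mef2c followed at 6.38 ± 0.885 and Hdac9 at 4.05 ± 0.287 CPM per kilobase, without overlap with the genes above or with each other. Hdac4 at 0.425 ± 0.239 and Mef2b at 0.275 ± 0.235 CPM per kilobase overlapped with each other and lay below all the rest. The order of the means was the same by either length, while the gaps between them changed. Per kilobase of the longest coding transcript, Mef2a stood at 76.2 ± 9.52, above every library of Hdac5 (48.7 ± 7.46), while Mef2d (22.0 ± 4.36) and Mef2c (15.98 ± 2.22) then overlapped.

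**Figure D3:**
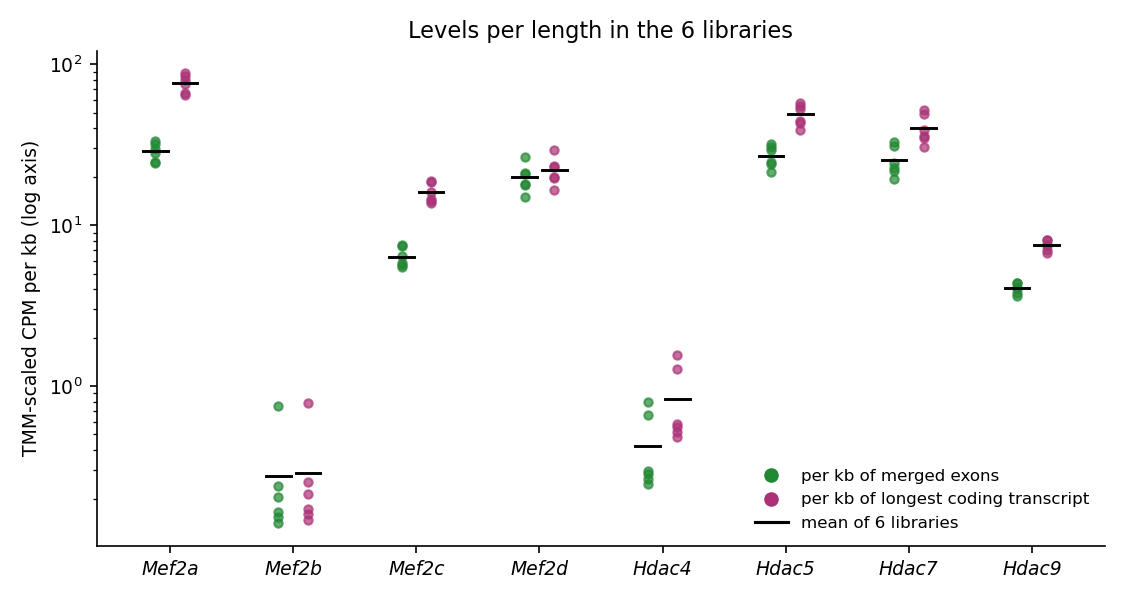
Level of each gene in the 6 libraries as TMM-scaled CPM per kilobase, on a log axis, by merged exon length and by the longest coding transcript. Points are libraries of both groups and black marks their means; the mean of Mef2a is highest by either length, while Hdac4 and Mef2b lie below 2 CPM per kilobase by both.

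Mef2a had the largest share of the MEF2 transcripts in every library, while Hdac5 and Hdac7 had similar shares of the deacetylases by merged exons. Mef2a made up 51.7% ± 3.06 of the summed MEF2 level per kilobase of merged exons in control and 52.6% ± 1.83 in Med12cKO (SD, n = 3 each). Mef2d made up 36.6% ± 3.40 and 34.9% ± 2.42, and Mef2c 11.03% ± 0.804 and 12.2% ± 0.690. Among the deacetylases, Hdac5 made up 48.2% ± 4.09 in control and 46.9% ± 5.52 in Med12cKO, and Hdac7 44.0% ± 5.42 and 44.6% ± 6.18. By merged exons, Hdac7 lay above Hdac5 in 2 of the 6 libraries, control replicate 3 and Med12cKO replicate 1. By the longest coding transcript, control replicate 3 had Hdac7 at 52.2 and Hdac5 at 52.8 CPM per kilobase. By merged exons, Hdac9 made up 7.07% ± 1.36 and 7.54% ± 1.69, and Hdac4 0.693% ± 0.382 and 0.885% ± 0.741. Shares depended on the length used. By the longest coding transcript, Mef2a made up 66.5% ± 2.18 in control and 66.8% ± 1.11 in Med12cKO. Mef2d then made up 19.7% ± 2.32 and 18.5% ± 1.63. For Hdac5 the shares were 50.7% ± 3.94 and 49.4% ± 5.47, and for Hdac7 40.9% ± 5.34 and 41.5% ± 6.11. These shares are descriptions, with no test.

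Differences between libraries of the same group were larger than differences between the groups, and they were not the same for each gene. Control replicate 2 was the highest library for 4 of the 7 tested genes (Mef2a, Mef2c, Mef2d and Hdac9). Hdac4 had the widest spread of the 7: its lower value in the replicate 2 libraries was 2.22 times the highest of the other 4 libraries, which lay between 3.91 and 4.69 CPM. Transcripts of the longest 10% of genes, with at least 9939 exon bases, were also highest in these libraries, with a median log2 deviation of 0.10 in control replicate 2 and 0.22 in Med12cKO replicate 2, against −0.17 to −0.04 in the others. A correction for exon length and GC content was chosen after the data were seen. It was fitted on genes with an average log2 CPM above 3, and Hdac4 lies below that level. With it, Hdac4 measured 9.29 and 10.9 CPM in the replicate 2 libraries and 4.1975 to 4.997 CPM in the other 4. The highest library was then 2.60 times the lowest, against 3.23 times without the correction. Mef2a, Mef2c and Hdac9 also have more than 9939 exon bases. With the correction, their highest library was 1.27, 1.28 and 1.26 times their lowest, against 1.36, 1.36 and 1.19 times without it. The part of gene length in these patterns was not tested. The sign of the Hdac4 fold change rested on single libraries: the log2 fold change was −0.55 without Med12cKO replicate 2 and 0.73 without control replicate 2.

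Hdac7 was highest in the pair of libraries that held T cell markers. Its lower value there, 208 CPM, was 1.26 times the highest of the other 4 libraries, which ran from 130 to 165 CPM. With a term for those libraries in the fit, the log2 fold change of Hdac7 was −0.04 (SE 0.13), and without them it was −0.02. One of these libraries lay in each group.

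**Figure D4:**
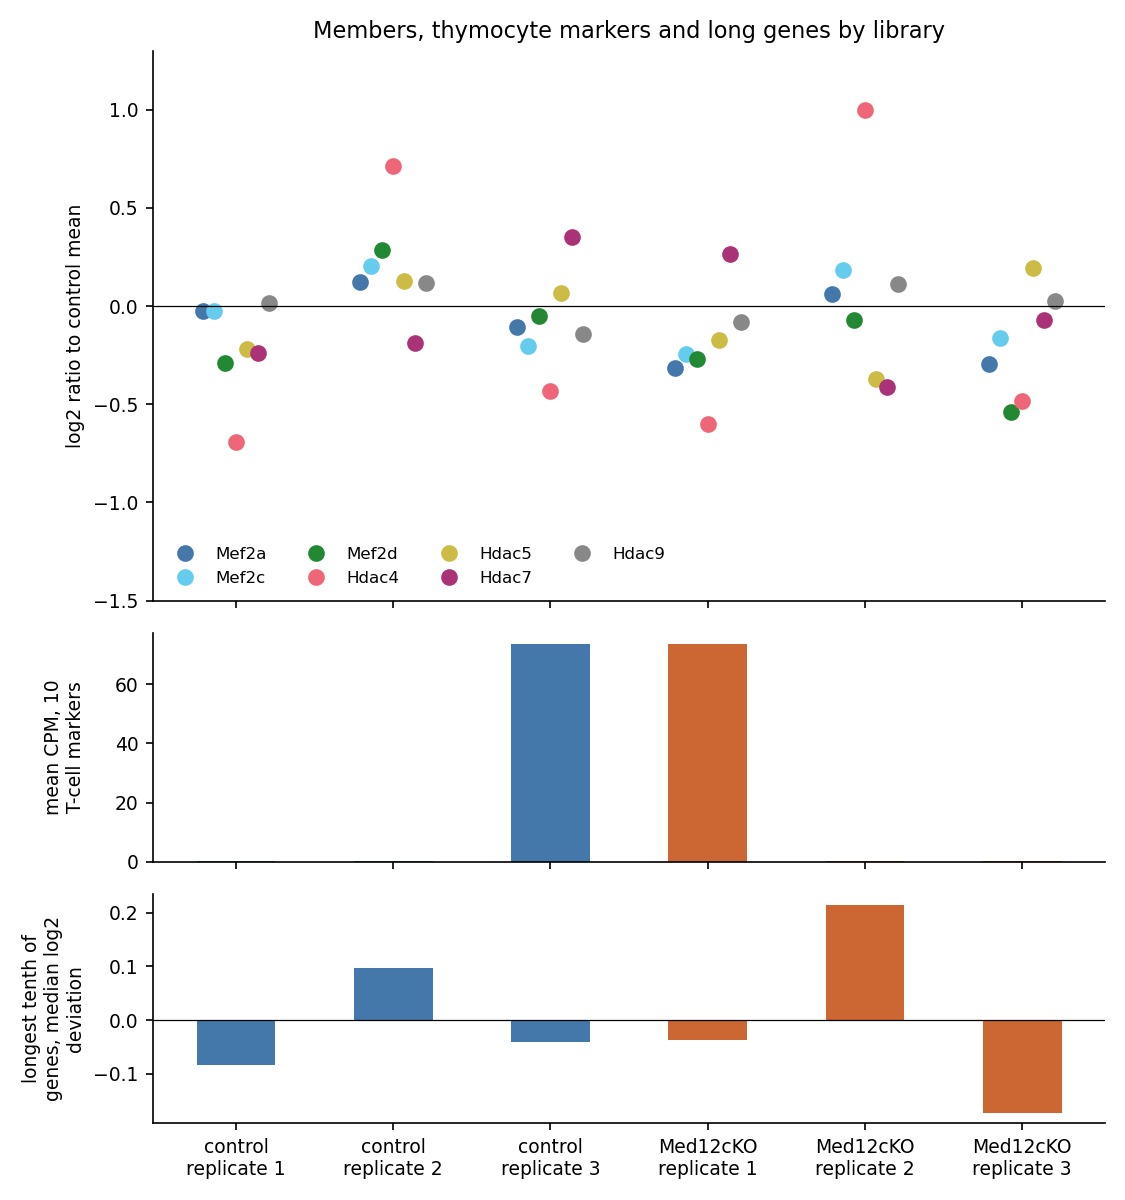
Top, log2 ratio to the control mean for the 7 tested genes in each of the 6 libraries; middle, mean CPM of the 10 T cell markers; bottom, median log2 deviation of the longest 10% of genes, with control bars in blue and Med12cKO bars in orange. Hdac4 lies at 0.71 in control replicate 2 and 1.00 in Med12cKO replicate 2, and Hdac7 at 0.35 in control replicate 3 and 0.27 in Med12cKO replicate 1, so each pattern spans both groups.

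The genes most like the most variable member of each family were found by the root mean square difference of log2 CPM, centred over the 6 libraries, among genes with an average log2 CPM of at least 4. Nearest to Mef2d were Zbtb43 (0.055), Kmt2d (0.070), a histone methyltransferase gene, and Aaed1 (0.074), out of 9029 candidates. Kmt2d measured 149, 206 and 172 CPM in control and 157, 176 and 136 CPM in Med12cKO, in the same order of libraries as Mef2d except that control replicate 3 and Med12cKO replicate 2 changed places. Nearest to Hdac4 were Dyrk2 (0.144), a protein kinase gene, Ndst1 (0.196), a heparan sulfate enzyme gene, and 4930402H24Rik (0.211). Dyrk2 measured 18.2, 37.1 and 19.2 CPM in control and 17.9, 42.2 and 18.5 CPM in Med12cKO, high in replicate 2 of each group as Hdac4 was. All genes were measured in the same libraries and so share their depth and group, and likeness over 6 libraries is a description.

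Genes known as MEF2 targets were counted as a list. This list and those below were drawn up with earlier results of these data known. Their shares are therefore counts and not independent tests. Of the 24 on the list, edgeR and limma-voom called 0 over all genes. At an unadjusted p under 0.05 there were 2 at higher values (Acta1 and Srpk3; 2.16% of all genes) and 2 at lower values (Jun and Adssl1; 1.61% of all genes), 16.7% of the list against 3.78% of all genes. The groups did not overlap for 5 of the 24, against 8.23% of all genes. Signs were mixed, with 13 negative and 11 positive log2 fold changes and a median of −0.05, against 0.0081 over all genes. The number at an unadjusted p under 0.05 moved from 4 to 2 without control replicate 2, to 7 without Med12cKO replicate 3, and to 1 without the pair of libraries with T cell markers. Over all genes the share at that p was 2.35%, 7.58% and 2.37% in these fits. With the correction for exon length and GC content the number was 6, with 5.19% of all genes. In the remaining alternatives it was 3 or 4.

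Acta1, skeletal alpha-actin, was the 1 listed target that DESeq2 called (adjusted p = 2.5e-04; edgeR adjusted p = 0.709). It measured 56.0, 51.2 and 39.6 CPM in control and 232, 86.9 and 109 CPM in Med12cKO, and the groups did not overlap. Its log2 fold change was 1.54 (SE 0.40). Without Med12cKO replicate 1, the library with the highest skeletal muscle marker sum, it was 0.99 (SE 0.18). Without the libraries with T cell markers it was 0.86 (SE 0.21). The edgeR unadjusted p was 0.0078 in the main fit and 2.8e-04 and 0.0010 in these fits. Their edgeR adjusted p was 0.233 and 0.514. Jun, an immediate-early transcription factor gene, measured 115, 137 and 133 CPM in control and 92.2, 95.4 and 106 CPM in Med12cKO (log2 fold change −0.39, SE 0.12; edgeR adjusted p = 0.751). Adssl1, a purine nucleotide cycle enzyme of muscle, measured 170, 184 and 161 CPM in control and 115, 112 and 157 CPM in Med12cKO (−0.43, SE 0.15). Srpk3, a muscle protein kinase gene, measured 87.8, 84.2 and 81.9 CPM in control and 91.2, 102 and 111 CPM in Med12cKO (0.26, SE 0.11). The groups of all 4 genes were apart, but edgeR passed none after adjustment.

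The MEF2 consensus was also searched near the starts of these targets. Of the 24, 21 had a RefSeq window, and 6 of the 21 held the element, against 249 of the 10193 genes tested that had a window (2.44%). The genes were listed as known MEF2 targets, so a higher share of the element is no independent result. The elements of 5 of these genes are shown with 10 bases on either side, 5′ to 3′ on the gene's strand, the element in capitals, to show how its letters vary between targets.
Jun, chr4:95052236-95052265, minus strand: acatcatgggCTATTTTTAGggattgactg
Klf2, chr8:72318934-72318963, plus strand: tataccgcggCTAAATTTAGgctgagcccg
Pgam2, chr11:5803857-5803886, minus strand: ttttgtgagaCTATTTTTAAgttcagctcc
Srpk3, chrX:73774328-73774357, plus strand: agctgggaggCTATTTATAAaggcgagtga
Xirp2, chr2:67445918-67445947, plus strand: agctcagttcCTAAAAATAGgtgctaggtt
The log2 fold changes were −0.39 for Jun, −0.25 for Klf2, −0.018 for Pgam2, 0.26 for Srpk3 and 0.35 for Xirp2, and none passed after adjustment. The elements of Jun and Hdac5 have the same letters, as do those of Mef2a and Xirp2. The Jun and Hdac5 spelling is the reverse complement of the Mef2a and Xirp2 spelling.

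Kinases and phosphatases that act on MEF2 or the class IIa deacetylases were counted next. Of 28 listed, none was called by edgeR, limma-voom or DESeq2, and the median log2 fold change was 0.02. At an edgeR unadjusted p under 0.05, 1 was higher and 1 lower (7.14% of the list, 3.78% of all genes). The groups did not overlap for 2 at higher values and 2 at lower values, against 8.23% of all genes. Camk1d, a calcium/calmodulin-dependent kinase gene, measured 35.8, 44.1 and 34.8 CPM in control and 26.05, 28.3 and 14.4 CPM in Med12cKO (−0.74, SE 0.24; edgeR adjusted p = 0.882). Camk1, from the same kinase family, lay on the other side, at 83.5, 81.4 and 68.6 CPM in control and 90.3, 91.3 and 107 CPM in Med12cKO (0.31, SE 0.13). Camk2b had a log2 fold change of 0.52 (SE 0.24) with groups that did not overlap, and Mapk12, a p38 kinase gene, 0.27 (SE 0.14) with groups that overlapped.

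The 14-3-3 and nuclear export genes had the highest median of the lists, 0.15, and none was called by edgeR, limma-voom or DESeq2. Of the 8, 7 were positive and 1 negative, while 47.8% of all genes tested were negative. At an edgeR unadjusted p under 0.05 there was 1 (12.5% of the list, 3.78% of all genes). The groups did not overlap for 1 of the 8, against 8.23% of all genes. Ywhah, the gene for 14-3-3 eta, measured 167, 160 and 167 CPM in control and 192, 196 and 204 CPM in Med12cKO, a narrow spread with no overlap (0.26, SE 0.10; edgeR unadjusted p = 0.032, adjusted p = 1.00). Ywhaq had a log2 fold change of 0.35 (SE 0.17), Ywhaz of 0.15 (SE 0.12), and Xpo1, the nuclear export receptor gene, of 0.15 (SE 0.15), all with overlapping groups.

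Among corepressors and coactivators, none of the 15 had an unadjusted p under 0.05 (3.78% of all genes) or groups apart (8.23% of all genes), and none was called by any of the 3 tools, and log2 fold changes lay between −0.17 (Ncoa2, a steroid receptor coactivator gene) and 0.19 (Kat2b, a histone acetyltransferase gene), with Carm1 at −0.12 and Tbl1xr1 at 0.12. The 14 other histone deacetylases, sirtuins among them, gave the same count of 0, with 10 negative and a median of −0.06. Hdac6 at −0.18 (SE 0.13), Sirt1 at −0.17 (SE 0.15), Sirt5 at −0.17 (SE 0.17) and Hdac1 at 0.22 (SE 0.15) had the lowest p among them.

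Among 14 transcription factors known to work with MEF2 or in the same cardiac network, none was called by edgeR, limma-voom or DESeq2. At an edgeR unadjusted p under 0.05, 1 was higher and 1 lower (14.3% of the list, 3.78% of all genes). The groups did not overlap for 2 at higher values and 1 at lower values, against 8.23% of all genes. Tbx5, a cardiac T-box factor gene, measured 131, 144 and 116 CPM in control and 97.9, 95.4 and 108 CPM in Med12cKO (−0.37, SE 0.12; edgeR adjusted p = 0.884). Hand1, a helix-loop-helix factor gene, was low throughout, at 3.80, 3.144 and 3.25 CPM in control and 5.98, 4.64 and 6.995 CPM in Med12cKO (0.79, SE 0.25; edgeR adjusted p = 0.850). For Srf the value was 0.24 (SE 0.14) on the log2 scale, and for Nfatc1 −0.23 (SE 0.14), with overlapping groups.

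**Figure D5:**
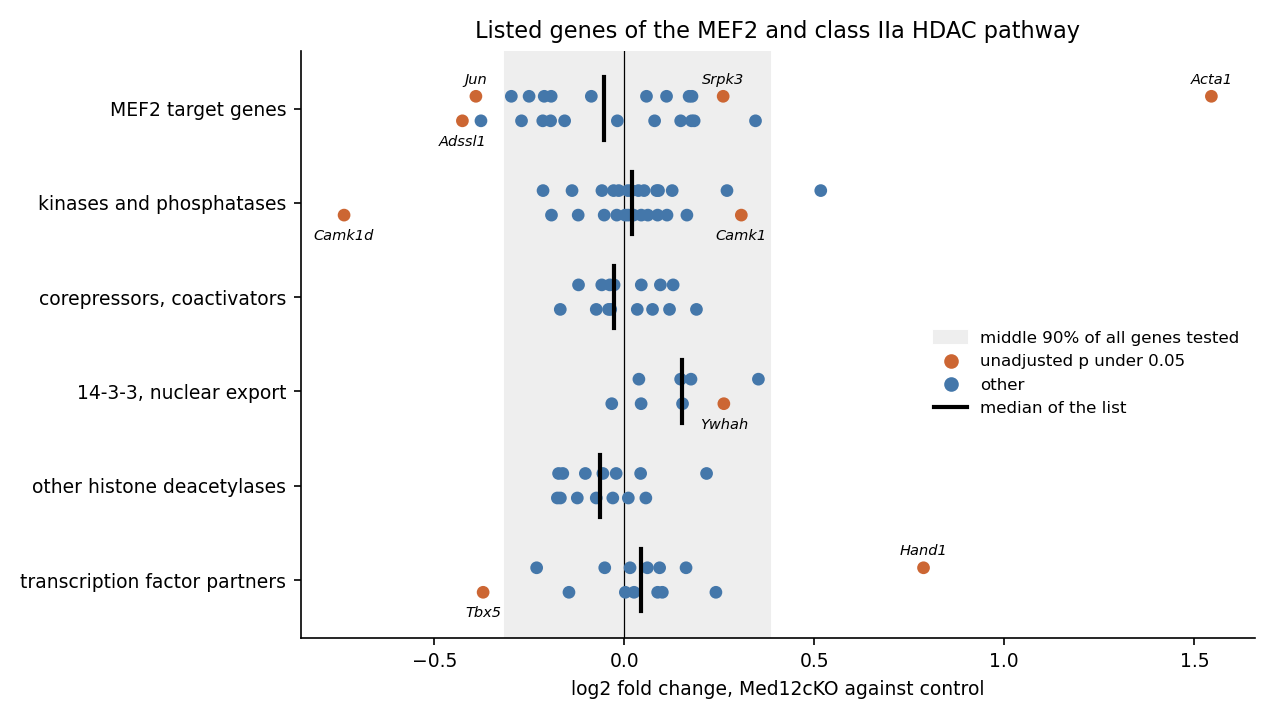
Log2 fold change, Med12cKO against control, of each tested gene of the 6 lists, with a black bar at the list's median; the shaded band holds the middle 90% of all genes tested. Genes at an unadjusted p under 0.05 are in orange and named; Acta1 lies farthest out at 1.54, and the median of every list lies between −0.06 and 0.15.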

How the data were processed

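The authors deposited whole-number read counts by gene symbol, with no normalization. Per the submitters' processing notes, the tools were TopHat2 2.0.0, featureCounts and edgeR 3.14.0, on GRCm38 (mm10); annotation, strand setting and filters are not given in the sources used here. The 6 columns were matched to samples by the labels, and groups came from the titles. The test was edgeR 4.0.16's quasi-likelihood test (R 4.3.3) with TMM scaling, filterByExpr (minimum count 10, minimum total 15) and Benjamini-Hochberg adjustment over all genes tested, threshold 0.05. Its 95% interval used the SE derived from F. DESeq2 1.42.0, limma-voom (limma 3.58.1), other scalings and filters, blocks and left-out libraries were alternatives, and a length and GC offset was added after the data were seen. Lengths and positions came from GENCODE M21, promoter windows from RefSeq.

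The members and lists were chosen with earlier results of these data known. Besides the members and Med12, the rule named up to 4 genes with the lowest p in each list and the 3 most like the most variable member of each family; Klf2, Pgam2 and Xirp2 were named after their values were seen, for their promoter match; 1 further match is not reported here. Counting limits leave out amplification, as no molecular identifiers are described, and so cover counting error only. Libraries within a group differed far beyond chance sampling of reads (chi-square over its degrees of freedom 14.5 to 29.3), so each counted as 1 replicate.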

Additional observations from a re-analysis of the deposited data

How the results depend on the processing

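Over 18 alternatives, no member passed an adjusted p under 0.05 in any fit (lowest 0.688, Hdac5 without Med12cKO replicate 3). Mef2a and Mef2d stayed negative in all, from −0.31 to −0.10 and from −0.51 to −0.11, and Mef2d had an unadjusted p of 0.019 among the letter I libraries. Signs changed in 14 of 126 member fits. Among the letter I libraries, Hdac4 was −0.78, Hdac7 0.0091 and Hdac9 −0.010; without the libraries with T cell markers Hdac9 was −0.0017. Leaving out 1 library at a time gave −0.20 to 0.053 for Mef2c, −0.55 to 0.73 for Hdac4, −0.27 to 0.020 for Hdac5, −0.25 to 0.17 for Hdac7 and −0.048 to 0.083 for Hdac9. The cause was not tested. Genes called higher in all numbered 1, and 32 in DESeq2, 2 with library totals only, with the term for T cell markers or without those libraries, and 0 with DESeq2's size factors, with the length and GC offset, and among the letter I libraries (302, 410 and 287 at an unadjusted p under 0.05). Genes called lower numbered 2, and 33 in DESeq2 and 1 among the letter I libraries. Leaving out 1 library at a time gave 0 to 1 higher and 1 to 2 lower; control replicate 1 and Med12cKO replicate 3 each ended the higher call (271 and 449 at an unadjusted p under 0.05 without them), and 1 gene was called lower without Med12cKO replicate 3. Same-numbered libraries deviated together for number 2 only (correlations of −0.31, 0.44 and −0.35 for numbers 1, 2 and 3). Control replicate 3 correlated most with Med12cKO replicate 1 (0.71), and control replicate 1 with Med12cKO replicate 3 (0.30). The numbers were therefore not taken as pairs. The replicate block gave 0 genes higher (288 at an unadjusted p under 0.05) and 2 lower and called no member. Depth limits Mef2b and Hdac4 most, at 2 to 11 and 34 to 128 counts per library.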

Other observations

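Genes of the lists that followed the library patterns of Hdac7 and Hdac4 were picked out after their values were seen. Camk4, a calcium/calmodulin-dependent kinase gene expressed in thymocytes, measured 27.1 CPM in control replicate 3 and 32.3 CPM in Med12cKO replicate 1, against 1.399 to 2.19 CPM in the other 4 libraries. Prkd2, a protein kinase D gene, measured 62.5 and 62.1 CPM in that pair and 35.2 to 43.9 CPM elsewhere. Nfatc3, a calcineurin-regulated factor gene, measured 75.6 and 79.5 CPM in that pair and 42.7 to 58.1 CPM elsewhere. These are the libraries in which Hdac7 was highest and T cell markers were present.

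Myocd, Sik2, Tbl1x and Crebbp were highest in replicate 2 of each group, as Hdac4 was. Myocd, the gene for the cardiac coactivator myocardin, measured 76.6 and 79.1 CPM there and 28.8 to 43.0 CPM in the other libraries. Sik2, a salt-inducible kinase gene, measured 23.9 and 27.8 CPM there and 6.35 to 11.5 CPM elsewhere, Tbl1x, a corepressor subunit gene, 45.7 and 63.1 CPM against 13.5 to 25.5 CPM, and Crebbp, an acetyltransferase gene, 59.0 and 69.5 CPM against 27.9 to 44.9 CPM. Their log2 fold changes between Med12cKO and control ran from −0.19 (Myocd) to 0.07 (Tbl1x), with adjusted p of 1.00 in edgeR.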
